A study of Homo sapiens with 6 samples.

Results

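Cytidine sites that were read mainly as G or A, rather than as T, were examined in ac4C-seq data of PANC-1 cells. The sites were chosen by their own base counts: a listed cytidine was kept when the T reads, summed over the 3 treated libraries of its group, did not exceed both the A reads and the G reads, so that sites with T level with A or G were kept. This gave 307 of the 686 cytidine sites and of the 2353 sites of any base. The control contributed 171 sites of 394 cytidines and NAT10 knockdown 136 sites of 292 cytidines.

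PANC-1 is an established human pancreatic cancer cell line. There were 3 samples of control cells, titled shControl, and 3 of cells with NAT10 knockdown, titled shNAT10. By these titles the control cells carried a control shRNA, while the deposited counts of the control are labelled WT. The labels name both siRNA and shRNA as the means of silencing, with no added treatment of the cells. Messenger RNA of each sample was divided into an untreated library and a library reduced with 100 mM sodium borohydride (NaBH4) at 55 °C for 30 min, which made 12 libraries. The labels do not say whether the 3 samples of a group came from separate cultures. The p-values below that compare the groups thus measure only the spread between these samples.

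N4-acetylcytidine (ac4C) is an acetylated cytidine of ribosomal, transfer and messenger RNA, and NAT10 is the acetyltransferase that writes it. Reduction with NaBH4 changes the base-pairing of ac4C, and reverse transcriptase then places a base that is sequenced as T. A cytidine read as G or A after reduction is thus not the change by which the assay reads ac4C. The reads with another base than C are called mismatched reads here, their percent of all reads at the site in a library is the mismatch level, and the percents of reads with G, A or T are the G, A and T levels.

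Some sites lay where RefSeq gives the sequence around an annotated gene start in GRCh38.p14, from 250 bases before to 50 bases after the start. They included the sites with the highest G levels of the control, and they are shown because they let the read bases be set beside the sequence. Each stretch has at most 30 bases and runs 5′ to 3′ on the strand of the gene. The capitals mark every listed site of the group within the stretch, and where there are several the site described is named with the sequence.
PDCD10, control, chr3:167734913-167734942, minus strand, site C at 167734927: tctgcacgactccgGCtGggcaggattccg
SLC30A9, control, chr4:41990498-41990527, plus strand, site C at 41990513: cgctaaatgacgttgCcgtttccgggtcac
WSB1, control, chr17:27294095-27294124, plus strand, site C at 27294110: cgcccgccattttgaCtccagtgtctcgtt
CUL4A, control, chr13:113209597-113209626, plus strand, site C at 113209612: cggggcggggcgcggCggttccggcccagc
MRPL12, control, chr17:81703371-81703400, plus strand, site C at 81703386: tttccggctcgaAtGCccggcagccgtggc
ACAP3, control, chr1:1307888-1307917, minus strand, site C at 1307902: cgggcgccgagGcggCgcgggcgggacgag
TXNL1, control, chr18:56638579-56638608, minus strand, site C at 56638593: cctggcgtgactcggCactgagagtcccgg
CCN2, control, chr6:131951344-131951373, minus strand, site C at 131951358: cacacaacaactcttCcccgctgagaggag
HS1BP3, control, chr2:20651049-20651070, minus strand, site C at 20651055: cgccgtcatgcagtCCccggcg
CDC42SE2, control, chr5:131264053-131264082, plus strand, site C at 131264068: aggaagctgcgagcgCgctggggagcgcag
PHKG2, control, chr16:30748443-30748472, plus strand, site C at 30748458: cgacagcgcagctcgCgtCgaccctggctc
PSMD12, NAT10 knockdown, chr17:67366578-67366607, minus strand, site C at 67366592: gcctgagcgGgtGcgCgggcaacttccggt
DHCR7, NAT10 knockdown, chr11:71448391-71448420, minus strand, site C at 71448405: tcatccgggggcgggCgcccctgccctgcg
KDM1A, NAT10 knockdown, chr1:23019480-23019509, plus strand, site C at 23019495: cgcgacggcggttggCggcgcgcgggcagc

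G was the main base at most of these sites. In the control, 110 of the 171 sites were read mainly as G, 46 mainly as A, and 15 had T level with the larger of A and G. In NAT10 knockdown the numbers were 98 sites with G, 26 with A and 12 with T level with the larger of A and G. G thus led at 64.3% of the control sites (95% Wilson interval 56.9 to 71.1) and at 72.1% of those of NAT10 knockdown (64.0 to 78.9), and A at 26.9% (20.8 to 34.0) and 19.1% (13.4 to 26.5). These intervals and all later ones cover counting error only, since each group has a single joint list of sites.

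**Figure D1:**
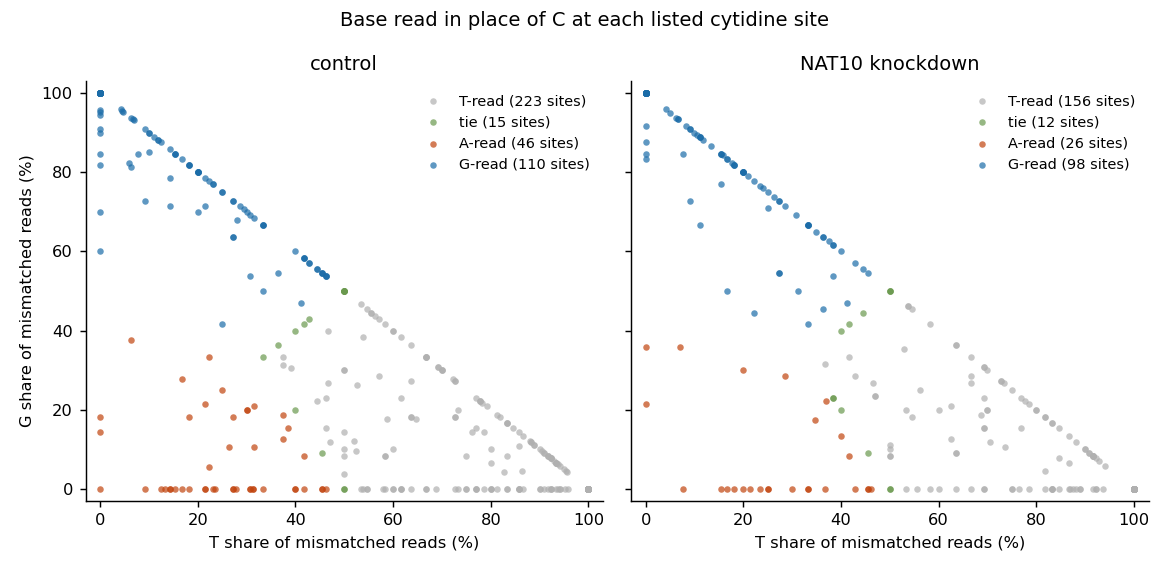
Each point is a cytidine site, with the T share (horizontal axis, %) and the G share (vertical axis, %) of its mismatched reads summed over the 3 treated libraries of the control (left) or NAT10 knockdown (right). Points on the falling diagonal had G and T only. The blue sites, read mainly as G, number 110 and 98, the red ones, read mainly as A, 46 and 26, and the green ones, where T is level with A or G, 15 and 12.

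The other base was often mixed. T was absent from all treated libraries at 40 sites of the control and 32 of NAT10 knockdown, and all 3 other bases occurred at 41 and 28 sites. A single other base, with no read of the remaining ones, was present at 29 control sites, of which 28 had G alone, and at 26 sites of NAT10 knockdown, all with G alone. The cytidines read mainly as T had a single other base more often, at 71 of 223 sites (31.8%) in the control against 17.0% of the G- or A-read sites, and at 57 of 156 (36.5%) in NAT10 knockdown against 19.1%. These values describe the choice of the sites and were not tested.

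Reads were few at each site. A G- or A-read site had a median of 13 mismatched reads over the 3 treated libraries in each group, among a median of 556 reads (control) and 535.5 reads (NAT10 knockdown). No treated library held fewer than 3 mismatched reads at any of them. The untreated libraries had 0 mismatched reads at them, of 73219 reads in control cells and 71271 after NAT10 knockdown. The same held for all listed sites of any base, with 0 of 675309 and 556802 untreated reads. Every listed site also had at least 3 mismatched reads in each treated library. With 3 reads as the upper limit that a count of 0 allows, the untreated reads of a site allowed a median level of up to 0.840% in control cells and 0.615% after NAT10 knockdown. The larger of the mean G and A levels lay above the limit of its own site at 163 of the 171 control sites and at 134 of the 136 sites of NAT10 knockdown. Since all listed sites share this pattern of reads, it describes the listing and is not a result about these sites.

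Whether the base persisted in a library that had no part in classing the site was examined by leaving out each treated library in turn. The sites were classed on the other 2. The left-out library still had a part in the listing, since every listed site had at least 3 mismatched reads in each treated library. In the control, 131 of 172, 123 of 181 and 128 of 178 sites had T not above both A and G in the left-out library, which is 72.0% ± 4.10 (SD, n = 3). In NAT10 knockdown 104 of 135, 107 of 134 and 108 of 145 sites did, or 77.1% ± 2.69 (SD, n = 3). At cytidines read mainly as T in the other 2 libraries, the left-out library met the same condition at 24.8% ± 4.58 and 22.7% ± 2.29 (SD, n = 3). The ranges of the 3 left-out libraries did not overlap between the classes in either group.

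G recurred at a larger share of sites than A. Sites with G above both A and T in the other 2 libraries had G above both in the left-out library at 73.2% ± 2.59 in control cells and 78.9% ± 4.56 after NAT10 knockdown (SD, n = 3). For A the values were 47.8% ± 1.16 and 40.3% ± 1.74 (SD, n = 3). Of all mismatched reads in the left-out library at G- or A-read sites, G made up 52.2% ± 2.14 and T 29.2% ± 1.66 in the control, and G 58.4% ± 2.59 and T 27.3% ± 2.53 in NAT10 knockdown (SD, n = 3). These shares were not tested, since the 3 left-out sets share their sites.

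**Figure D2:**
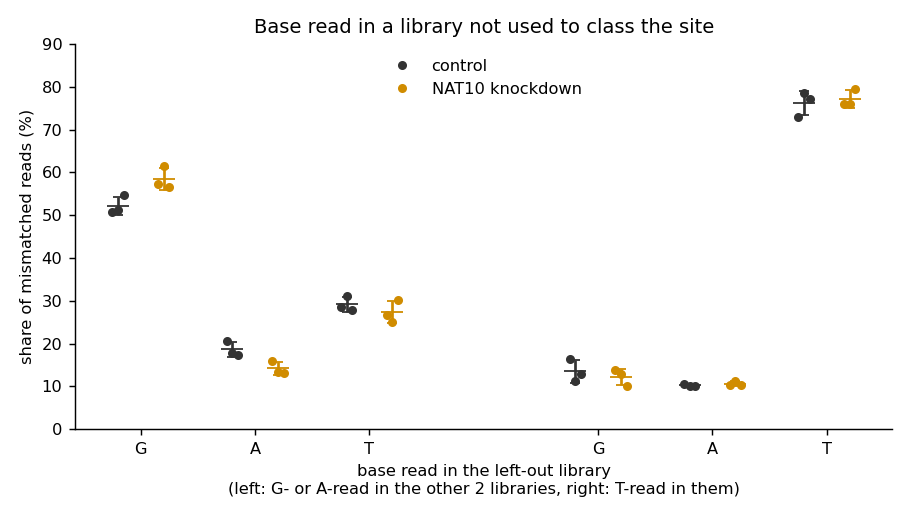
Share of mismatched reads with G, A or T (vertical axis, %) in a treated library that was not used to class the sites, for sites classed as G- or A-read (left) or T-read (right) on the other 2 libraries of the group. Points are the 3 left-out libraries, and bars show the mean and SD. At G- or A-read sites G made up 52.2% and 58.4% of the left-out mismatched reads in the control and NAT10 knockdown, and at T-read sites T made up 76.2% and 77.1%.

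To compare the groups, the number of sites was considered first. NAT10 knockdown had 0.795 times as many G- or A-read sites as the control (95% interval 0.635 to 0.996), and 0.700 times as many T-read cytidine sites. The whole list was also shorter, with 1001 sites of any base in NAT10 knockdown against 1352 in the control. The interval treats sites as independent and does not measure the spread between samples, so the lower number is not a result about these sites. G- or A-read sites were 43.4% of the listed cytidines in the control (95% Wilson interval 38.6 to 48.3) and 46.6% in NAT10 knockdown (40.9 to 52.3), and these intervals overlapped. With at least 20 mismatched reads at a site, 22 control sites and 9 sites of NAT10 knockdown remained, a ratio of 0.409. Among the listed sites of any base, none lay on chromosomes 7, 8 or X in either group, and chromosome 9 had 0 in control cells and 1 after NAT10 knockdown, so the numbers are those of the sites analysed here.

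The base composition differed between the groups by a few percentage points. G made up 59.9%, 57.2% and 60.8% of the mismatched reads at these sites in the treated libraries of control cells, against 62.2%, 65.3% and 61.5% after NAT10 knockdown. A made up 22.1%, 20.8% and 19.3% in control cells and 17.3%, 16.1% and 16.6% after NAT10 knockdown. T made up 18.0%, 22.0% and 19.9% in control cells and 20.5%, 18.7% and 21.9% after NAT10 knockdown. The libraries of the groups did not overlap for G or A and overlapped for T. Over all listed cytidines, which include these sites, the shares were 31.0% ± 1.25 and 34.3% ± 0.774 for G and 14.0% ± 0.827 and 12.3% ± 0.568 for A (SD, n = 3), and the libraries did not overlap there either.

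The G share of NAT10 knockdown minus that of the control was 3.66 percentage points, the A share -4.04 and the T share 0.385. These differences are a description, and no p-value is given for them, since the same base counts chose the sites. The direction for G and A turned when only sites with at least 20 mismatched reads were kept. Over those 22 and 9 sites the difference was -17.9 percentage points for G and 6.56 for A. Without the sites that had another listed site within 10 bases, it was 1.25 percentage points for G and -2.97 for A. The libraries of the groups then overlapped for G, as they did when the rule had to be met in every treated library. The whole tables, of 1352 and 1001 sites, share 1 position, so the comparison is of lists and not of the same positions.

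The mismatch level was then compared between the groups. The median over sites was 2.43%, 2.34% and 2.33% in the treated libraries of control cells, against 2.27%, 2.46% and 2.72% after NAT10 knockdown. The means were 2.36% ± 0.0552 and 2.49% ± 0.225 (SD, n = 3), and the libraries overlapped. The difference of 0.123 percentage points was less than the spread of NAT10 knockdown (two-sided exact permutation p = 0.6), and without replicate 3 of NAT10 knockdown it had the other sign, at -0.104 percentage points. For each untreated read at these sites, treated libraries of the control held 1.46 ± 0.157 reads and those of NAT10 knockdown 1.22 ± 0.0407 (SD, n = 3, exact permutation p = 0.1), and at T-read cytidines 1.40 ± 0.133 and 1.19 ± 0.0492. These ratios did not overlap between the groups at the G- or A-read sites, and those of T-read cytidines did not overlap either. The difference is thus not particular to the G- or A-read sites. With 3 against 3 samples, 0.1 is the smallest p that this permutation test can give.

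G- or A-read sites had higher mismatch levels than T-read cytidines of the same libraries. At T-read cytidines the median level was 1.77%, 1.69% and 1.72% in control cells, and 1.84%, 1.81% and 1.83% after NAT10 knockdown, each below the value of its library above. When the sites were classed on the other 2 libraries, the level in the left-out library was higher at G- or A-read sites by 0.635 percentage points ± 0.151 (SD), in 6 of 6 treated samples. Within the control the difference was 0.643 ± 0.0162 and within NAT10 knockdown 0.627 ± 0.238 percentage points (SD, n = 3). The left-out library also had at least 3 mismatched reads at each listed site. The left-out sets within a group share their sites, so no p-value is given for the difference.

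The depth of the sites moved with this difference. The median T-read cytidine had 724 treated and 486 untreated reads in control cells and 729.5 and 603.5 after NAT10 knockdown, and the G- or A-read sites had 556 and 357, and 535.5 and 487.5. Both classes had a median of 13 mismatched reads. Between 300 and 1000 treated reads, a range chosen after seeing the data, the difference of the medians classed and measured on all libraries was 0.289 percentage points, against 0.648 over all depths. The part of depth in the difference was not tested.

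**Figure D3:**
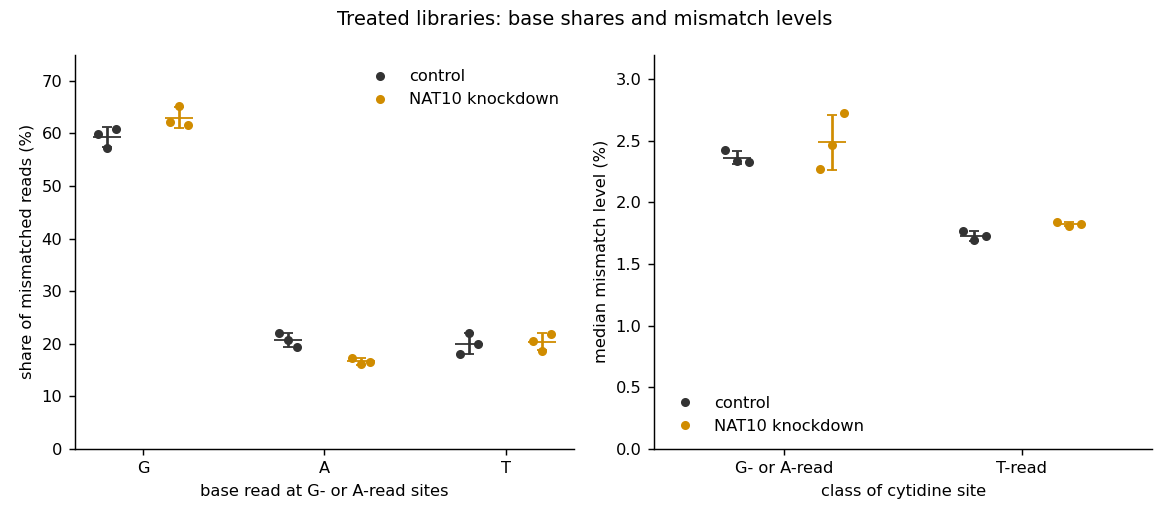
Left, share of mismatched reads with G, A or T (vertical axis, %) at G- or A-read cytidine sites in each treated library. Right, median mismatch level (vertical axis, %) of G- or A-read and T-read cytidine sites. Points are the 3 treated libraries of the control (dark) and NAT10 knockdown (yellow), and bars show the mean and SD. The 6 G- or A-read medians, from 2.27% to 2.72%, lie above the 6 T-read medians, from 1.69% to 1.84%.

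The sites with the highest G levels in the control were in PDCD10, an adaptor protein of signalling complexes in vessel walls, and in SLC30A9, a zinc transporter. At the PDCD10 site, G was read in 9 of 21, 3 of 17 and 6 of 17 reads, a G level of 31.9% ± 12.9 (SD, n = 3). At the SLC30A9 site it was read in 5 of 13, 3 of 9 and 3 of 13 reads, or 31.6% ± 7.83, with 3 T reads in replicate 1 only. The untreated libraries had 66 and 41 reads at these positions.

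Next came a site in ENDOV (chr17:80425048, plus strand), which encodes an endonuclease that cuts at inosine, with 3 of 14, 3 of 39 and 4 of 15 reads, or 18.6% ± 9.80. TMEM242 (chr6:157292954, minus strand) had G in 7 of 63, 9 of 69 and 8 of 55 reads, or 12.9% ± 1.72, the most even of the 5. WSB1, a substrate receptor of a ubiquitin ligase, had G in 5 of 31, 3 of 25 and 2 of 29 reads, or 11.7% ± 4.62 (SD, n = 3 for each).

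In NAT10 knockdown the highest G levels were lower. FBXW11, an F-box protein that recognises substrates of a ubiquitin ligase, had G in 3 of 31, 5 of 37 and 8 of 38 reads at chr5:171862670 on the minus strand, or 14.7% ± 5.79. ADCY3, an adenylate cyclase, had G in 6 of 33, 5 of 37 and 3 of 24 reads at chr2:24819983 on the minus strand, or 14.7% ± 3.03. PSMD12, a subunit of the proteasome's regulatory particle, had G in 4 of 37, 5 of 32 and 6 of 60 reads, or 12.1% ± 3.04 (SD, n = 3 for each).
LHFPL2 (8.53% ± 3.74) and ALG3, a mannosyltransferase of N-glycan assembly (8.06% ± 2.49), followed. No position among these 5 was listed in the control table, and the highest 5 of the control were not listed in that of NAT10 knockdown, so no level of the other group can be given.

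The highest A levels varied more between libraries. ME3, the mitochondrial NADP-dependent malic enzyme, had A in 4, 4 and 0 reads of 27, 59 and 80 and T in 3 reads of replicate 3 (A level 7.20% ± 7.42). CERS5, a ceramide synthase, had A in 5, 0 and 8 reads of 65, 34 and 60 (7.01% ± 6.69). PARP6, a mono-ADP-ribosyltransferase, was even, with 4, 3 and 4 A reads of 69, 64 and 77 (5.23% ± 0.555).
HEATR1, which acts in the processing of ribosomal RNA precursors, had an A level of 5.32% ± 2.22 and MIDN, a nuclear protein, 4.80% ± 3.40 (SD, n = 3). In NAT10 knockdown the highest A level, 18.6% ± 16.7, came from 17, 16 and 8 reads at chr2:95526301 on the minus strand, outside any protein-coding gene. CELSR3, an atypical cadherin, had an A level of 9.63% ± 8.64, with 6, 1 and 4 reads. BLCAP (6.36% ± 5.62), GBE1, the glycogen branching enzyme (4.90% ± 5.81), and TEDC2 (4.47% ± 4.03) had SDs close to or above their means.

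The deepest sites had G levels from 0.616% to 1.82%. CD44, the hyaluronan receptor, had the most treated reads of the control sites (2342), with 2, 10 and 6 G reads and 1, 1 and 4 T reads, a G level of 0.777% ± 0.524. MFN2, a GTPase of mitochondrial fusion, had 4, 8 and 15 G reads of 556, 517 and 471 and T in replicate 3 only, a G level of 1.82% ± 1.25. BAG6, a chaperone, had 5, 4 and 1 G reads against 1, 6 and 3 T reads, a G level of 0.616% ± 0.391. In NAT10 knockdown, a site outside protein-coding genes (chr19:55654689, plus strand) had 2416 reads, SUPT5H, a transcription elongation factor, 2264, and SAMD4B, an RNA-binding protein, 2008. Their G levels were 0.746% ± 0.598, 0.895% ± 0.284 and 0.691% ± 0.335 (SD, n = 3).

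Differences between the treated replicates of a group were tested at each site of the whole table with Fisher's exact test and Benjamini-Hochberg adjustment. These tests take reads as the units and set the replicates against counting error only. The mismatch level differed between replicates at 0 of the 171 control sites and 0 of the 136 sites of NAT10 knockdown. Over all listed sites of the control 0.00% were called, and of NAT10 knockdown 0.0999%. At an unadjusted exact p under 0.05 there were 7 such sites of the control (4.09%) and 4 of NAT10 knockdown (2.94%), beside 2.14% and 2.40% of all listed sites and 0.897% and 1.92% of T-read cytidines. The requirement of at least 3 mismatched reads in every treated library narrows the range over which a listed site can differ.

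The mismatched base differed between replicates at 3 of the 171 control sites (1.75%), with 1.85% of all listed control sites called, and at 2 of the 136 sites of NAT10 knockdown (1.47%), with 4.50% called. At an unadjusted exact p under 0.05 these were 34 and 33 sites, or 19.9% and 24.3%, beside 17.5% and 21.6% of all listed sites. Without any single replicate, 0 of the 3 and 0 of the 2 sites were called.

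At SF3B1, a core component of the spliceosome, G was read in 6, 2 and 0 reads and T in 0, 0 and 7 (Fisher's exact test, adjusted p = 0.00927). At TRIOBP, an actin-bundling protein, G was read in 9, 0 and 4 reads and T in 0, 6 and 0 (adjusted exact p = 0.0149). At CHMP6, of the ESCRT-III complex, G was read in 0, 3 and 6 reads and T in 6, 0 and 0 (adjusted exact p = 0.0334).
Each of these control sites had 1 library with T and no G. In NAT10 knockdown, SEC14L1 had G in 6, 0 and 3 reads and T in 0, 6 and 0 (adjusted exact p = 0.0181), and MBOAT7, a lysophospholipid acyltransferase, had G in 6, 2 and 0 and T in 0, 2 and 6 (adjusted exact p = 0.0188). At these positions the base that placed the site in this class came from some of the libraries only.

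The rule turned on few reads at its edge. Just inside it, RECQL had 4 A, 4 G and 4 T reads in the control, KDM1A 3 A, 4 G and 4 T, and SRCAP 7 G and 7 T. Just outside it, SRRM2 had 12 A against 13 T reads, CDC25B 4 A against 5 T and LONP1 7 G against 8 T. In NAT10 knockdown, PCED1A and UBALD1 had 5 T reads level with 5 of G or A and DPP9 had 4 T and 4 G reads inside, and AURKB had 6 T against 5 A, TAOK1 7 T against 6 G and NCDN 6 T against 5 G outside. A margin of 1 read kept 16 control sites and 9 sites of NAT10 knockdown out. The rule was met in each treated library on its own by 98 of the 171 control sites and 80 of the 136 sites of NAT10 knockdown.

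Listed sites were close together near G-read cytidines. Another listed site of any base, within 10 bases on the same strand, was present for 38 of 171 control sites (22.2%, 95% Wilson interval 16.6 to 29.0) and for 32 of 136 sites of NAT10 knockdown (23.5%, 17.2 to 31.3). For T-read cytidines it was 24 of 223 (10.8%, 7.34 to 15.5) and 24 of 156 (15.4%, 10.6 to 21.9), and for all listed sites 13.7% and 11.9%. G-read sites had a neighbour in 32 of 110 and 29 of 98 cases, A-read sites in 6 of 46 and 3 of 26, and the sites with T level with A or G in 0 of 15 and 0 of 12.

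The share was highest where the other base was always the same. Of the sites with a single other base, 16 of 29 in the control (55.2%, 37.5 to 71.6) and 15 of 26 in NAT10 knockdown (57.7%, 38.9 to 74.5) had a neighbour. Of those with 2 or 3 other bases, 22 of 142 (15.5%, 10.5 to 22.3) and 17 of 110 (15.5%, 9.88 to 23.4) had one. Sites of a cluster are covered by the same reads and are not independent, so no test was made.

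**Figure D4:**
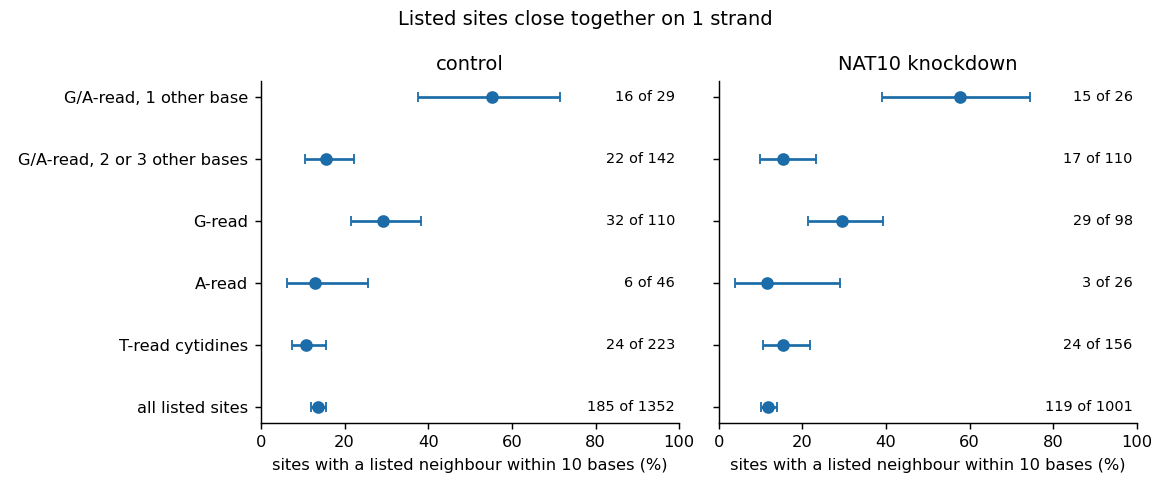
Percent of sites (horizontal axis) with another listed site within 10 bases on the same strand, for classes of site (rows) in the control (left) and NAT10 knockdown (right). Points are shares, bars their 95% Wilson intervals, and the counts are printed at the right. G- or A-read sites with 1 other base stand at 55.2% and 57.7%, and all listed sites at 13.7% and 11.9%.

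Neighbouring sites often had the same number of reads with the leading other base in each of the 3 libraries. In the control this held for 31 of the 46 pairs that include a G- or A-read site (67.4%), and in NAT10 knockdown for 29 of 47 (61.7%). Pairs of listed sites without one did so in 53 of 86 (61.6%) and 28 of 56 cases. Such equality was thus also frequent elsewhere in the tables, and with counts of 3 to 10 reads some pairs can be equal without sharing reads. The tables do not show which reads carried the changes.

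The clusters often combined different changes. In PDCD10 the C read as G, the G next to it 5′ read as A and the G at 2 bases 3′ read as T each had 9, 3 and 6 reads, at the 3 capitals of its sequence above. In MRPL12, a mitochondrial ribosomal protein, an A read as G, a G read as T and the C read as G had 7, 4 and 10 reads each. In FBXW11 the C read as G, the C next to it 5′ read as T and an A at 5 bases 5′ read as G each had 3, 5 and 8 reads.

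Adjacent or nearly adjacent cytidines could be read as different bases. In PSMD3, a proteasome subunit, the first C was read as G and the next as T, in 4, 4 and 3 reads each. In ENDOV a C read as G and another at 2 bases 3′ read as T had 3, 3 and 4 reads each. In SDHA, the flavoprotein of succinate dehydrogenase, adjacent cytidines at chr5:236520 and 236521 on the plus strand were read mainly as A and as G, in 4, 3 and 4 reads each in NAT10 knockdown.
The T-read cytidine of such a pair is counted among the T-read sites, and 9 control pairs and 11 pairs of NAT10 knockdown were of this kind. In SFPQ, a splicing and paraspeckle protein, and in ITGA3, an integrin subunit, the G-read and T-read cytidines were adjacent and had equal leading counts, of 3, 2 and 4 reads in control cells and 3, 4 and 4 after NAT10 knockdown. In HS1BP3, where the adjacent CC is capitalised above, the second C had 3, 4 and 6 G reads and the first 5, 4 and 6 T reads.

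Pairs of G- or A-read sites within 10 bases were 4 in control cells and 11 after NAT10 knockdown. The control pairs were in SEC24C, a coat protein of COPII vesicles, MAP2K3, a kinase that activates p38, BLTP2 and RASAL2. RASAL2, a GTPase-activating protein of RAS, had G in 4, 3 and 3 reads at chr1:178458175 and 178458178 on the plus strand. In NAT10 knockdown 3 sites of SYNJ2, a phosphoinositide phosphatase, lay at chr6:158028858, 158028860 and 158028863 on the plus strand, with 5, 4 and 4, 5, 3 and 4, and 5, 3 and 4 G reads. KHSRP, an RNA-binding splicing and decay factor, had 3, 3 and 4 G reads at chr19:6414488 and 6414491 on the minus strand, and PPT1, a lysosomal thioesterase, 7, 4 and 6 at 2 sites.

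The share of control sites that lay in promoter windows was examined after the data were seen and was not tested. In the control 17 of 171 G- or A-read sites lay in a window of a gene on their strand (9.94%, 95% Wilson interval 6.30 to 15.3), 15 of them G-read and 2 A-read. For T-read cytidines it was 11 of 223 (4.93%, 2.78 to 8.62) and for all listed sites 4.51%, and the intervals of the G- or A-read and T-read sites overlapped. In NAT10 knockdown 5 of 136 G- or A-read sites (3.68%, 1.58 to 8.32), 5 of 156 T-read cytidines (3.21%, 1.38 to 7.28) and 2.20% of all listed sites lay in one. The window table held the genes of 146 of the 171 and 105 of the 136 sites, so the shares are of different completeness.

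The control sites in the windows included many of the highest levels. Of the 13 control sites with a mean G level of at least 5%, 8 lay in a window, and of 17 such sites in NAT10 knockdown 1 did. CUL4A, a scaffold of ubiquitin ligases, had G in 9, 3 and 8 reads of 83, 89 and 88 at the base before its annotated start (7.77% ± 3.91). TXNL1, a thioredoxin-like protein, had G in 3, 4 and 5 reads of 56, 84 and 77 at the base before its start (5.54% ± 0.880), and CCN2, a secreted matricellular protein, in 4, 17 and 11 of 165, 220 and 171 at 15 bases (5.53% ± 2.76, SD, n = 3).

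MRPL12 had a G level of 6.88% ± 2.88 and ACAP3, a GTPase-activating protein of ARF, 6.48% ± 1.67. The 2 A-read control sites were in CDC42SE2, an effector of CDC42, with an A level of 4.78% ± 1.43, and PHKG2, a catalytic subunit of phosphorylase kinase, with 1.56% ± 0.467. In NAT10 knockdown, PSMD12 had the highest level, then DHCR7, a reductase of cholesterol synthesis, with 6, 9 and 5 G reads of 239, 142 and 89 (4.82% ± 2.03, SD, n = 3).
Of these window sites, 5 of 17 in control cells and 2 of 5 after NAT10 knockdown lay before the annotated start, upstream of the single start that the table gives for the gene. PDCD10 lay at -35, SLC30A9 at -17 and WSB1 at -4, counted back from the base before the start as -1, and they had 17 to 21, 9 to 13 and 25 to 31 treated reads in a library.

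**Figure D5:**
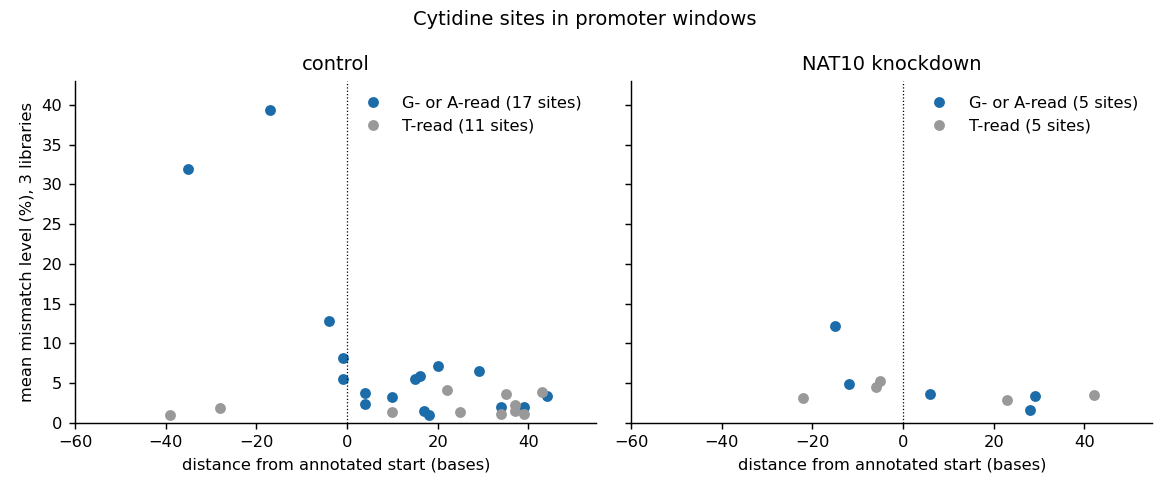
Mean mismatch level over the 3 treated libraries (vertical axis, %) against the distance from the annotated gene start (horizontal axis, bases, with positive values inside the transcript) for cytidine sites in promoter windows of the control (left) and NAT10 knockdown (right). Blue points are the 17 and 5 G- or A-read sites and grey points the 11 and 5 T-read cytidines. The control sites above 10% all lie before the start.

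The sequence next to the site could be read in the windows only. The base after the C was G at 12 of the 22 G- or A-read sites in windows (54.5%) and at 6 of the 16 T-read cytidines there (37.5%). The site was the middle C of CCG, searched on the strand of the gene, at 0 of 22 and 1 of 16. Of all promoter windows of this length, 88.1% held CCG somewhere on either strand. That is a share of whole windows, so it gives no rate to which single cytidines could be compared. The wider sequence of the remaining sites was not analysed here.

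One G- or A-read site was listed in both groups, and it was the 1 position that the whole tables share, 0.0740% of the sites listed in the control and 0.0999% of those in NAT10 knockdown. It lay in SEC23IP, which binds COPII coat proteins, at chr10:119903007 on the plus strand. G was read in 4 of 206, 3 of 223 and 4 of 218 reads in control cells and in 4 of 303, 4 of 229 and 1 of 290 after NAT10 knockdown. The G levels were 1.94%, 1.35% and 1.83% in control cells and 1.32%, 1.75% and 0.345% after NAT10 knockdown, and they overlapped.

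The mean G level at SEC23IP was 1.71% ± 0.318 in control cells and 1.14% ± 0.719 after NAT10 knockdown (SD, n = 3), a difference of -0.570 percentage points (two-sided exact permutation p = 0.2). T was read once in control replicates 1 and 3, and in 2 reads of replicate 3 in NAT10 knockdown. The mismatch level was 2.02% ± 0.590 and 1.37% ± 0.358 (exact permutation p = 0.2). The untreated libraries had 152, 188 and 187 reads in control cells and 249, 198 and 269 after NAT10 knockdown, with 0 mismatched reads, which allows levels of up to 1.97%, 1.60%, 1.60%, 1.20%, 1.52% and 1.12%. Over the 527 and 716 untreated reads of the groups together the limits were 0.569% and 0.419%, below the mean G levels of 1.71% and 1.14%. All listed sites had 0 mismatched reads in the untreated libraries, so this is not particular to SEC23IP.

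Genes with a site in both groups numbered 3. The control sites lay in 160 genes and those of NAT10 knockdown in 119, so that the shared genes were 1.88% and 2.52% of them. For T-read cytidines the genes in both were 7, or 3.41% and 4.73%, and for all listed sites 201, or 18.8% and 24.8%, of lists that differ in length. These shares were not tested. Apart from SEC23IP these were ZC3H18, a nuclear RNA-binding protein, and KDM1A, a histone demethylase, at different positions. ZC3H18 had 6 G and 6 T reads at both its positions, chr16:88622336 in the control and chr16:88570529 in NAT10 knockdown, both on the plus strand. KDM1A had its control site inside the gene (chr1:23071295) and its site of NAT10 knockdown at 28 bases from the start, with 1, 2 and 2 G reads against 2, 1 and 1 T reads.

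Genes with a G- or A-read site also had T-read cytidines, 14 of the 160 in the control table and 16 of the 119 in that of NAT10 knockdown. Several of these held both in a close pair described above, such as PSMD3, ENDOV and ITGA3. A total of 8 of the 160 had a T-read cytidine in NAT10 knockdown instead, among them the receptor kinase AXL and DIAPH1. Of the 119, 5 had a T-read cytidine in the control. Shares for other classes of site were not taken, so these counts are a description and were not tested. Positions were on the strand of the gene wherever it was known. By strand there were 93 plus and 78 minus sites in control cells and 76 and 60 after NAT10 knockdown.

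Genes of focal adhesion, the link between matrix and cytoskeleton that the study followed, held 6 of the 171 control sites (3.51%) and 6 of the 136 sites of NAT10 knockdown (4.41%), beside 2.24% and 1.92% of T-read cytidines, 2.79% and 3.08% of all cytidines and 1.78% and 1.90% of all listed sites. These shares rest on few sites and were not tested. The control sites were in COL5A2, DIAPH1, JUN, LAMB2, PPP1R12C and PXN. JUN, a subunit of AP-1, had A in 0, 3 and 3 reads and T in 3, 0 and 0 of 294, 328 and 266 at chr1:58782772 on the minus strand.
PPP1R12C, a regulatory subunit of myosin phosphatase, had A in 1, 8 and 3 reads, G in 0, 2 and 0 and T in 5, 0 and 0 at chr19:55093182 on the minus strand (adjusted exact p of the base difference 0.0567). DIAPH1, a formin, had G in 0, 2 and 3 reads and T in 3, 0 and 2 at chr5:141579095 on the minus strand. In each of these 3 genes, replicate 1 had T reads and at most 1 read of another base.

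The sites of NAT10 knockdown in focal adhesion genes included those in CCND1, COL1A1 and ITGA3 and 2 in COL18A1. CCND1, a cyclin of the G1 phase, had G in 3, 3 and 6 reads of 115, 120 and 71 and no other base (4.52% ± 3.40). ITGA3 had a G level of 0.933% ± 0.147. COL1A1, a fibrillar collagen chain, had A in 6, 2 and 4 reads of 568, 543 and 66, so its A level of 2.50% ± 3.11 (SD, n = 3) rested on the shallow replicate 3.

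The remaining gene families held few sites. Solute carriers had 5 G- or A-read sites and 1 T-read cytidine in the control, and 1 and 5 in NAT10 knockdown. Their G- or A-read sites were 2.92% and 0.735% of those of the groups, beside 1.92% and 1.40% of all listed sites. SLC20A1, a phosphate transporter, had G in 5, 4 and 5 reads and no other base (1.44% ± 0.287), and SLC2A1, the glucose transporter GLUT1, had G in 4, 4 and 2 reads and T in 3 of replicate 3. Helicases of the DDX and DHX families had 2 control sites, in DDX24 and in DHX29, a helicase of translation initiation, with 4, 5 and 4 G reads and a G level of 4.21% ± 0.173, and 0 in NAT10 knockdown. The 2 sites were 1.17% of the control sites, and helicases held 0.96% and 0.80% of all listed sites.
Genes with EIF symbols had 0 control sites and 1 site of NAT10 knockdown. It was in EIF4A3 of the exon junction complex, with an A level of 3.55% ± 1.85 (SD, n = 3). Cytosolic ribosomal proteins had 0 and 1, genes with ZNF symbols 2 and 2, and histone demethylases 1 and 1, the KDM1A sites above. A single site is 0.585% of the control sites and 0.735% of those of NAT10 knockdown. Of all listed sites, genes with EIF symbols held 0.592% and 0.300% and ribosomal proteins 0.370% and 0.200%. ZNF genes held 1.26% and 1.30% and histone demethylases 0.296% and 0.300%. The families rest on few sites and were not tested. The study's other named genes NAT10, ITGB5, BCAR1, MBD4, DHX30 and KDM4A had none.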

How the data were processed

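The authors trimmed reads with fastp 0.23.1 and removed duplicates by molecular identifiers in proprietary software, compiled bases at variant positions with JACUSA and tested them in a second proprietary program. The submitters' processing notes also name STAR 2.7.6a, featureCounts and GRCh38. A table per group was deposited, with counts of A, C, G and T reads for each listed site in each treated and untreated library; its columns of fractions, letter codes, differences and the authors' p-values were not used. The reference base equalled the RefSeq promoter sequence on the stated strand at all 95 control sites and 34 sites of NAT10 knockdown where it could be compared. The full depth is not known: treated libraries held 34971 to 35642 reads at the G- or A-read sites in the control and 27549 to 30102 in NAT10 knockdown.

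Sites and gene lists were chosen with earlier results of these data known. Genes were named from protein-coding spans of GRCh38.p14 (RefSeq), or from the promoter window in 4 control sites and 1 site of NAT10 knockdown, and overlapping genes were each counted. The gene strand was not in the table for 24 and 28 sites. Exons and introns were not analysed here. Named were the shared site, genes with a site in both groups, the 5 highest G and A levels, the 3 deepest sites, sites that differed between replicates, close pairs, sites at the threshold, the study's genes and the listed families, with further sites of clusters and windows chosen after their values were seen. No p-value is given for the base shares at the chosen sites, whose counts the choice used. Levels were compared over samples with exact permutation tests, and replicates at a site with Fisher's exact test on the 3 treated libraries, adjusted over the 1352 or 1001 sites of the table, with an adjusted p under 0.05 called. The scripts were tested on simulated data. Python 3.11.15, scipy 1.17.1 and R 4.3.3 were used.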

Additional observations from a re-analysis of the deposited data

How the results depend on the processing

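Over 182 alternative values of 21 results, 145 left the result on the same side of its threshold, with the same sign, or moved it by less than its error. When the rule had to be met in every treated library, 98 control sites (24.9% of cytidines) and 80 sites of NAT10 knockdown (27.4%) remained, with neighbours at 33.7% and 37.5%, and the difference in median level was -0.159 percentage points. With at least 20 mismatched reads there were 22 and 9 sites (ratio 0.409), with neighbours at 33.3% in NAT10 knockdown. NAT10 knockdown minus control was then -17.9 percentage points for the G share, 6.56 for the A share and -0.892 for the median level. The difference from T-read cytidines was 0.519 percentage points. The T share of NAT10 knockdown minus control was -0.487 with the base from mean levels, -1.13 without promoter windows and -1.64 as a mean over sites. The cause was not tested.

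Without 1 replicate at a time, the T share difference ran from -1.84 to 2.09, the median level difference from -0.104 to 0.315 and the difference from T-read cytidines from 0.526 to 0.742 percentage points. The sites whose base differed between replicates were 0 in each of these settings. Tested over sites with at least 20 mismatched reads only, they were 0 in the control and 1 in NAT10 knockdown. Left-out libraries with at least 5 mismatched reads met the rule at 72.6% of sites in NAT10 knockdown. With the same-numbered replicates as a block, exact sign-flip p-values over the 3 pairs, which cannot go below 0.25, were 0.75 for the median level (0.123 percentage points) and 0.5 for the SEC23IP G level. Whether the numbers pair the samples could not be checked, since the tables share a single such site. The quasi-binomial model gave p = 0.303 for the SEC23IP G level and 0.149 for its mismatch level. The filter on the authors' p-value and the bases around all sites were not run. The choices of promoter windows, the depth range and the level in left-out libraries were added after seeing the data. Depth limited single sites, at a median of 13 mismatched reads.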

Other observations

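Sites of other bases were also found in the promoter windows of the control. Of the 218 listed guanosines of the control, 19 lay in a window (8.72%, 95% Wilson interval 5.65 to 13.2), and 18 of these 19 were read mainly as T, against 67 of the 199 guanosines elsewhere. Windows held 8 of 216 listed uridines and 6 of 524 listed adenosines of the control. In NAT10 knockdown 4 of 158 guanosines lay in a window, and 2 of these 4 were read mainly as T, against 37 of 154 elsewhere. These values were seen after the data were examined and were not tested.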
